A study of Mus musculus with 10 samples.

Results

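The 5 arrays titled as biological replicate 1 were compared with the 5 titled as biological replicate 2, pair by pair within 5 groups of construct, drug and time, so all 10 of the 10 arrays of the series were used. The cells were mouse LSK cells, blood stem and progenitor cells that lack lineage markers and carry Sca1 and c-kit, transduced with a retrovirus for the homeobox factor HOXB4 and for EGFP. In HOXB4-ER (titled HOXB4ERT) the factor is fused to a receptor domain and needs 4-hydroxytamoxifen (TMX) to act in the nucleus, whereas HOXB4const is the unmodified, constantly active factor. Cells of all groups had first grown for 14 days with cytokines, without serum and with TMX at 10 nM, had then been sorted as GFP-positive LSK cells, and had stayed with TMX for another 12 h. The order of the groups is the same for all values given below: HOXB4-ER kept on 10 nM TMX (1 h), HOXB4-ER off TMX for 1 h, the same cells off TMX for 4 h, HOXB4const kept on 10 nM TMX (1 h), and HOXB4const off TMX for 1 h. Each group had 1 array of each replicate number. The sources used here do not say what a number stands for (an animal pool, a transduction or a day), and they give neither strain nor age of the mice. Sorted populations were divided between treatments, so the 5 pairs are not 5 independent cultures, and p-values measure the spread between these arrays, part of which may be technical.

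Blood progenitors in culture run along a path from cycling, self-renewing cells to monocytes, granulocytes and mast cells. The factor PU.1 drives the macrophage programme, whose products include lysozyme, the CSF1 receptor, integrins and the phagocyte oxidase, and such cells answer stimuli within an hour with immediate early and inflammatory genes. Dividing cells carry transcripts for DNA replication in S phase and for the spindle and chromosomes in G2 and M phase, many of which are controlled through CCAAT boxes and the cell cycle homology region. RNA quality acts on a separate axis: arrays of this kind are primed from the poly(A) tail, so where RNA is broken or amplified products are short, probe sets near the 5′ end lose signal relative to those at the 3′ end.

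The deposited value was a log2 signal for each of 45037 probe sets (controls aside), with array medians from 3.96 to 5.32. The highest median belonged to the HOXB4const without TMX replicate 1 array. Precision is limited by how few arrays there are. The 22519 probe sets whose mean reached the median mean level are called the brighter probe sets here, and for them the median 95% interval of a replicate difference reached 0.584 to either side. All differences below are replicate 1 minus replicate 2 on the log2 scale, with limma's standard error, and a gene is represented by its brightest probe set unless stated. Of the sort markers, the brightest Kit probe set lay between 8.72 and 10.02 on replicate 1 and between 9.44 and 10.93 on replicate 2 arrays. Cd34, a progenitor sialomucin that was not a marker of the sort, lay between 10.78 and 11.86 and between 10.89 and 11.31. Ly6a, the gene of Sca1, was not analysed here.

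The control probe sets showed a difference in the 3′ to 5′ balance of the RNA. Gapdh, a glycolytic enzyme, has 3′, middle and 5′ control probe sets, and their 3′ minus 5′ difference was 1.04, 1.01, 1.42, 0.74 and 1.28 on the replicate 1 arrays and 1.74, 1.48, 3.47, 2.93 and 3.98 on the replicate 2 arrays (log2). Every replicate 2 array lay above every replicate 1 array. The 5 paired differences were −0.70, −0.47, −2.05, −2.19 and −2.70, with a mean of −1.62 ± 0.98 (SD, n = 5, exact two-sided sign-flip permutation p = 0.0625, the smallest that 5 pairs allow, adjusted p = 0.125 over 4 control genes). Taken as 5 arrays against 5, the exact two-sided permutation p was 0.00794, the smallest that this split allows (adjusted p = 0.0317).

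Beta-actin, a cytoskeletal protein, had a 3′ minus 5′ difference of 1.86, 1.78, 2.28, 1.60 and 1.49 on replicate 1 and 2.57, 2.19, 3.11, 3.05 and 3.87 on replicate 2 arrays. The mean paired difference was −1.16 ± 0.78 (SD, n = 5, exact two-sided sign-flip permutation p = 0.0625, adjusted p = 0.125), and the arrays overlapped only where the HOXB4-ER 4 h replicate 1 array (2.28) passed the replicate 2 array of HOXB4-ER off TMX for 1 h (2.19). In Gapdh the signal that differed was the 5′ one, higher on replicate 1 by a mean of 1.26 in 5 of 5 groups, while the 3′ signal was lower in 4 of 5 (mean −0.36). In beta-actin all 3 positions were higher on replicate 1 in 5 of 5 groups, by 0.69 at the 3′ end, 1.27 in the middle and 1.84 at the 5′ end. The level of the actin transcript and its end balance therefore moved together with the replicate number. For Tfrc, the transferrin receptor, and Pcx, pyruvate carboxylase, the dimmer controls, the differences were −0.84 ± 1.05 and −0.09 ± 1.62 (SD, n = 5, exact two-sided sign-flip permutation p = 0.188 and 0.875).

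**Figure D1:**
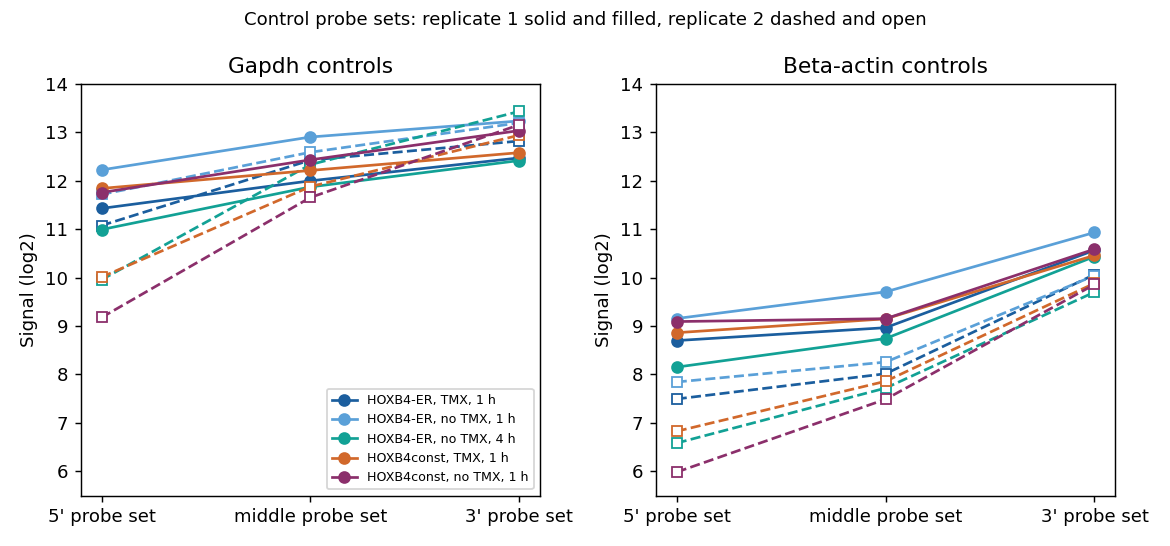
Signals (log2) of the 5′, middle and 3′ control probe sets of Gapdh (left) and beta-actin (right), 1 line for each of the 10 arrays, coloured by group, with replicate 1 solid and filled and replicate 2 dashed and open. The dashed Gapdh lines fall further towards the 5′ end, most in the 3 pairs whose differences were −2.05, −2.19 and −2.70, and the dashed actin lines lie below the solid ones at all 3 positions.

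In the fit over all 45037 probe sets, 0 passed an adjusted p of 0.05 in limma (0%; smallest adjusted p = 0.132), although 6152 had an unadjusted p under 0.05, 4742 of them higher on replicate 1 and 1410 lower, against 2252 that chance gives. That split was 2377 against 2856 with each array centred on its median and 3073 against 2497 after quantile normalization. Among the 22519 brighter probe sets alone, 850 passed, of which 759 (3.37%) were higher on replicate 1 and 91 (0.404%) lower. Per gene, 245 of 11341 (2.16%) were called higher and 62 (0.547%) lower in that fit, referred to below as the brighter fit. The mean that defines brightness is over the arrays of both numbers, so a probe set can enter through a single number. Acod1, Mmp12, Cd83, Atf3 and Ifit3, for example, were below 4 on all replicate 2 arrays and entered through replicate 1. Calls of such genes, and counts that include them, are no independent support for the direction. Leaving out any pair cost most of the calls. Without the HOXB4-ER pair on TMX, the one off TMX for 1 h or the one off TMX for 4 h, 0 brighter probe sets passed. Their smallest adjusted p was 0.0929, 0.051 and 0.0741 (limma), not far from the threshold. Without the HOXB4const pair with TMX 75 passed, and without the one lacking TMX 157. In the same order, 4460, 4928, 4658, 5421 and 5250 had an unadjusted p under 0.05. With the Gapdh 3′ minus 5′ difference as a covariate, 0 brighter probe sets passed, and 1775 had an unadjusted p under 0.05. As a plain count, 1634 of 18193 genes (8.98%) were higher on the replicate 1 array in all 5 groups and 1989 (10.9%) lower.

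Of the 245 genes called higher in the brighter fit, 65 were among the 197 brighter genes on the myeloid and inflammatory lists, and 0 of the 62 called lower were. Conversely, 8 of the 62 called lower and 1 of the 245 called higher were among the 171 brighter genes on the cycling lists. The lists were written with results of these data known, so their directions are descriptions and no independent evidence.

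Monocyte and macrophage genes formed the largest shift. Of 47 measured, 44 were higher on replicate 1, 31 of them in all 5 groups (1 was lower in all 5), and 27 of the 43 brighter ones passed the brighter fit as higher and 0 as lower. The median difference was 1.76, against 0.03 over all 18193 genes, and by group it was 2.19, 2.15, 2.26, 1.43 and 1.53. Fewer cells of a type and less RNA per cell cannot be told apart in such bulk samples.

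Lyz2, the lysozyme of macrophages, read 12.42, 13.07, 12.12, 12.50 and 12.56 on replicate 1 and 8.71, 9.06, 8.73, 10.31 and 10.05 on replicate 2 arrays. The 2 sets did not overlap, and the difference was 3.16 ± 0.36 (n = 5 pairs, adjusted p = 0.136 in limma over all probe sets and 0.022 in the brighter fit). Mpeg1, a pore-forming protein of macrophages, read 10.91, 10.80, 11.002, 9.40 and 8.93 against 5.47, 4.05, 5.08, 5.81 and 5.54. Here too the sets were apart, by more in the 3 HOXB4-ER pairs than in the HOXB4const pairs, and the mean difference was 5.02 ± 0.58. Csf1r, the receptor for the macrophage growth factor CSF1, read 11.32, 11.13, 11.39, 10.55 and 10.43 against 7.02, 6.80, 7.34, 8.30 and 8.56, a difference of 3.36 ± 0.49. The replicate 2 arrays thus still carried clear Lyz2 and Csf1r signals.

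Itgam, the CD11b chain of the complement receptor integrin, read 7.26, 8.04, 6.57, 7.44 and 7.15 against 4.14, 4.67, 3.34, 5.44 and 4.93 (difference 2.79 ± 0.31). Cd68, a lysosomal membrane protein of macrophages, read 9.73, 10.15, 9.80, 9.11 and 9.41 against 7.41, 7.26, 7.69, 7.87 and 7.40 (2.12 ± 0.30). Neither gene's arrays overlapped between the numbers. Of the 10 defining monocyte markers, 9 were higher on replicate 1 in all 5 groups, and the exception was Fcgr1, the high-affinity receptor for IgG, at 0.39 ± 0.39 and higher in 3 of 5. Ccr2, the chemokine receptor of blood monocytes, differed by 1.04 ± 0.30 and did not pass the brighter fit (adjusted p = 0.071 in limma).

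Both Itgam and Cd68 carry the PU.1 core letters GAGGAA close before their start, and the windows are shown because the core lies in more of the macrophage genes listed than of genes in general. Each is the 250 bases before the RefSeq start (build GRCm38.p6), read 5′ to 3′ on the gene's strand, with GAGGAA or its reverse complement TTCCTC in capitals (no other letters are marked). Itgam lies on the plus strand at chr7:128062390-128062639 and Cd68 on the minus strand at chr11:69666171-69666420.
Itgam: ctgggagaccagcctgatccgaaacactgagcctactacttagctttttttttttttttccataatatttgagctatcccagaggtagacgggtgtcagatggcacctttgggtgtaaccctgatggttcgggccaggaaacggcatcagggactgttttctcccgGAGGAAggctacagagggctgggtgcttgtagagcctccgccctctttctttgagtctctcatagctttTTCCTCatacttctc
Cd68: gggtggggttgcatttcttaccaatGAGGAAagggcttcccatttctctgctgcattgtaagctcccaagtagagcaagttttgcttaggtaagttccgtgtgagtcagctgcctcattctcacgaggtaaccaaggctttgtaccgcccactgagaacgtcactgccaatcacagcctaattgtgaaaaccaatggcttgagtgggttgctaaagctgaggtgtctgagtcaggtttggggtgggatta
GAGGAA was found on either strand in 22 of the 39 monocyte and macrophage genes with such a window (56.4%) and in 6252 of 27025 genes overall (23.1%). The granulocyte list held it in 16 of 27 (59.3%), and the dendritic list in 4 of 21 (19%). It was also frequent in lists with smaller medians, in 9 of 20 megakaryocyte and platelet genes (45%, list median 0.19) and 10 of 23 lymphoid genes (43.5%, list median 0.44). The AP-1 letters TGACTCA, sought in the same way, were in 1 of the 39 and in 4.43% of all genes. A match of letters is a description and shows no binding.

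Among the genes that the naming rule added to this list, Cybb, the membrane subunit of the phagocyte oxidase, read 9.21, 9.42, 9.26, 8.73 and 8.43 against 4.57, 3.72, 3.55, 5.14 and 5.26 (4.56 ± 0.48). Ms4a7, a membrane protein of mature macrophages, differed by 6.12 ± 0.66 and Mmp12, the macrophage elastase, by 6.24 ± 0.68. Mmp12 read 7.31, 7.41, 7.96, 7.36 and 7.95 against 0.22, 3.18, −0.66, 2.44 and 1.61. Levels below about 4 are near the bottom of the scale, so the size of a difference from them is loosely set. With values below 4 set to 4, the difference was 4.74 for Ms4a7 and 3.60 for Mmp12.

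**Figure D2:**
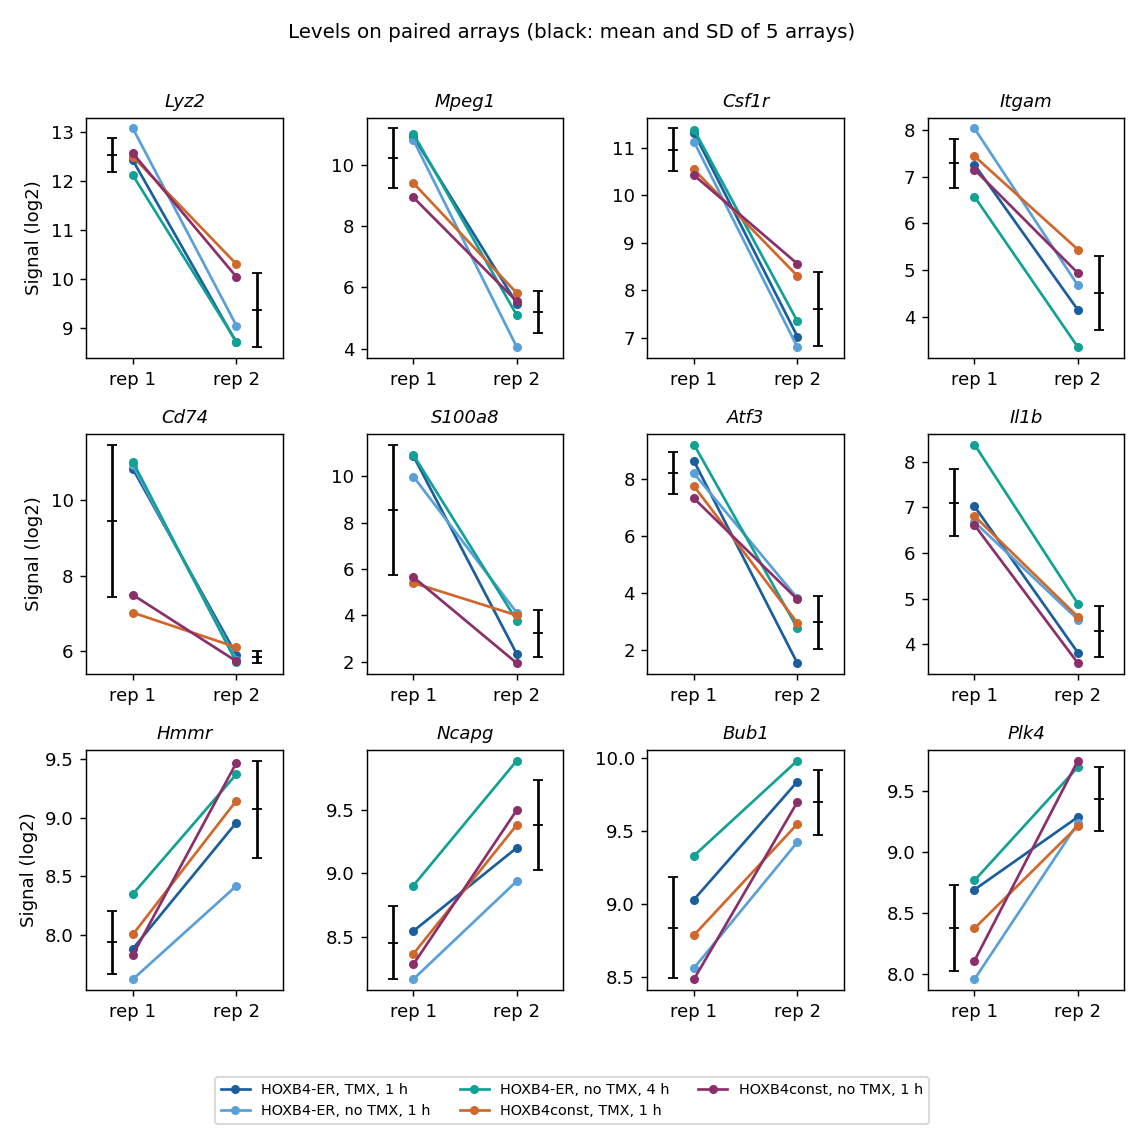
Levels (log2) of 12 genes on the replicate 1 and replicate 2 arrays, with a line joining the pair of each group and black bars for the mean and SD of 5 arrays; each panel has its own scale. Lines of the 8 myeloid and inflammatory genes run down from replicate 1 to replicate 2 in all 5 groups, those of Hmmr, Ncapg, Bub1 and Plk4 run up, and Cd74 and S100a8 fall far less in the HOXB4const pairs.

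Granulocyte genes were split. Of 26 measured, 6 were higher on replicate 1 in all 5 groups and 2 lower, the median was 0.77, and 4 of 20 brighter ones passed the brighter fit, all as higher. Hp, haptoglobin, read 8.41, 8.80, 9.27, 8.45 and 8.50 against 5.77, 6.22, 6.84, 6.29 and 6.03, with no overlap (2.46 ± 0.22, adjusted p = 0.132 over all probe sets and 0.0127 in the brighter fit, limma). Mmp8, neutrophil collagenase, differed by 2.25 ± 0.26, and Fpr2, a formyl peptide receptor, by 2.80 ± 0.53. By group the list median was 1.32, 0.70, 1.49, 0.41 and 0.46. It was 0.45 with each array centred on its median and 1.24 without the HOXB4-ER pair off TMX for 1 h. Of the primary granule enzymes that mark early myeloid progenitors, Mpo differed by 0.37 ± 0.27, Prtn3 by 0.02 ± 0.22 and Ctsg by −0.31 ± 0.23, at median replicate 1 levels of 12.48, 10.93 and 12.33. Elane, neutrophil elastase, was dimmer and differed by 2.31 ± 0.72, higher in 4 of 5 groups (median levels 9.57 and 5.88) and not past the brighter fit (adjusted p = 0.0983, limma). S100a8, a calcium-binding protein of neutrophils and monocytes, read 10.87, 9.98, 10.91, 5.40 and 5.64 against 2.32, 4.11, 3.77, 4.00 and 1.93. Its 3 HOXB4-ER replicate 1 arrays stood far above all others, and the mean difference was 4.54 with values below 4 set to 4. Of the 9 defining neutrophil markers, 8 had a higher mean on replicate 1, but only S100a8 was higher in all 5 groups. Ctsg was lower in all 5.

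Antigen presentation and dendritic genes had a median of 0.999 (28 measured, 9 higher in all 5 groups, 0 lower), and 3 of 20 brighter ones passed the brighter fit as higher. Cd83, a marker of activated dendritic cells, read 8.11, 7.80, 10.07, 4.83 and 5.82 against 3.27, 1.96, 1.51, 1.59 and 1.48 (5.36 ± 0.77). Itgax, the CD11c integrin chain, differed by 3.26 ± 0.61 and Id2, a transcriptional inhibitor needed for dendritic cells, by 4.49 ± 0.76. All Cd83 replicate 2 levels were below 4, and with values below 4 set to 4 these 3 differences were 3.33, 2.67 and 2.48. Cd74, the invariant chain of MHC class II, read 10.83, 10.94, 11.02, 7.01 and 7.49 against 5.89, 5.76, 5.69, 6.09 and 5.72. The sets did not overlap, but the gap was 5.15 in HOXB4-ER and 1.34 in HOXB4const pairs, and the gene missed the brighter fit (3.63 ± 0.81, adjusted p = 0.0543, limma).

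Lysosomal genes had a median of 0.48 (0.16 with each array centred on its median), with 13 of 26 higher in all 5 groups, 0 lower in all 5, and 7 of 26 past the brighter fit as higher. Psap, the precursor of the saposins that help degrade sphingolipids, read 11.10, 11.23, 11.11, 10.77 and 11.05 against 9.39, 9.16, 9.46, 9.59 and 9.43 (1.65 ± 0.24). Ctsb, the protease cathepsin B, differed by 1.69 ± 0.26. A dimmer probe set of the same gene showed a wider gap, 3.18 ± 0.24 for Psap and 3.48 ± 0.27 for Ctsb.

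Immediate early genes, which cells switch on within minutes of a stimulus without new protein, were higher by a median of 1.28 (18 of 32 higher in all 5 groups, 0 lower), and 12 of 26 brighter ones passed the brighter fit. By group the median was 1.43, 1.27, 1.64, 0.76 and 0.94. Atf3, a stress-induced transcription factor, read 8.63, 8.20, 9.22, 7.76 and 7.33 on replicate 1 and 1.53, 3.82, 2.76, 2.95 and 3.78 on replicate 2 arrays, a difference of 5.26 ± 0.58, and of 4.23 with values below 4, which include all of replicate 2, set to 4. Egr1, a zinc finger factor, read 9.09, 8.84, 7.82, 8.18 and 7.38 against 6.75, 6.12, 4.17, 5.37 and 5.90 (2.60 ± 0.36). Ptgs2, the inducible cyclooxygenase, differed by 2.57 ± 0.24 at its brighter probe set, and its other probe set had the opposite sign. Zfp36, which marks inflammatory messages for decay, differed by 2.09 ± 0.33.

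TNF and NF-kB response genes had a median of 0.94, with 20 of 39 higher in all 5 groups and 3 lower, and 12 of 37 brighter ones passed the brighter fit, all as higher. The cytokine Il1b read 7.02, 6.68, 8.37, 6.81 and 6.61 against 3.81, 4.54, 4.89, 4.60 and 3.59 (2.81 ± 0.31). Ccl3, a chemokine, read 9.42, 9.43, 8.84, 8.44 and 8.25 against 5.12, 5.11, 6.71, 5.58 and 5.27 (3.31 ± 0.41). No replicate 1 array of either gene fell into the replicate 2 range. Tlr2, a receptor for bacterial lipoproteins, differed by 2.23 ± 0.30 and Slc2a6, a sugar transporter, by 1.76 ± 0.25. Acod1, which makes itaconate in activated macrophages, read 7.40, 7.11, 10.36, 7.33 and 7.24 against 0.41, 1.36, 1.82, 1.28 and 2.02 (6.51 ± 0.53, adjusted p = 0.132 over all probe sets and 0.0154 in the brighter fit, limma). Its replicate 2 levels were all below 4, so it reached the brighter set through replicate 1 alone. With values below 4 set to 4 the difference was 3.89. Socs3, a feedback inhibitor of cytokine signalling, differed by 3.65 ± 0.32 at the probe set that the naming rule picked. The same rule named Rgs2, an inhibitor of G protein signalling (2.80 ± 0.26), Adam17, the sheddase of TNF (2.62 ± 0.25), and Prkch, a protein kinase C (2.37 ± 0.21), each at a probe set that is not the gene's brightest, and 1 of the 3 probe sets of Adam17 had the opposite sign. None of these genes, Socs3 included, passed the brighter fit at its brightest probe set, and the rule picked the probe sets for their small p.

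Interferon response genes had a median of 0.22, at 0.79, 0.54, 0.72, −0.20 and 0.11 by group, and −0.11 with each array centred on its median. Of 31, 6 were higher in all 5 groups and 0 lower, and 2 of 28 brighter ones passed the brighter fit as higher. Ifit3, an antiviral protein, read 6.71, 6.66, 6.57, 4.66 and 6.58 against 2.69, 3.93, 3.35, 2.80 and 3.08 (3.07 ± 0.37, or 2.24 with values below 4 set to 4). All its replicate 2 levels were below 4, so Ifit3 entered the brighter set through replicate 1 alone. Bst2, tetherin, differed by 1.01 ± 0.22.

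**Figure D3:**
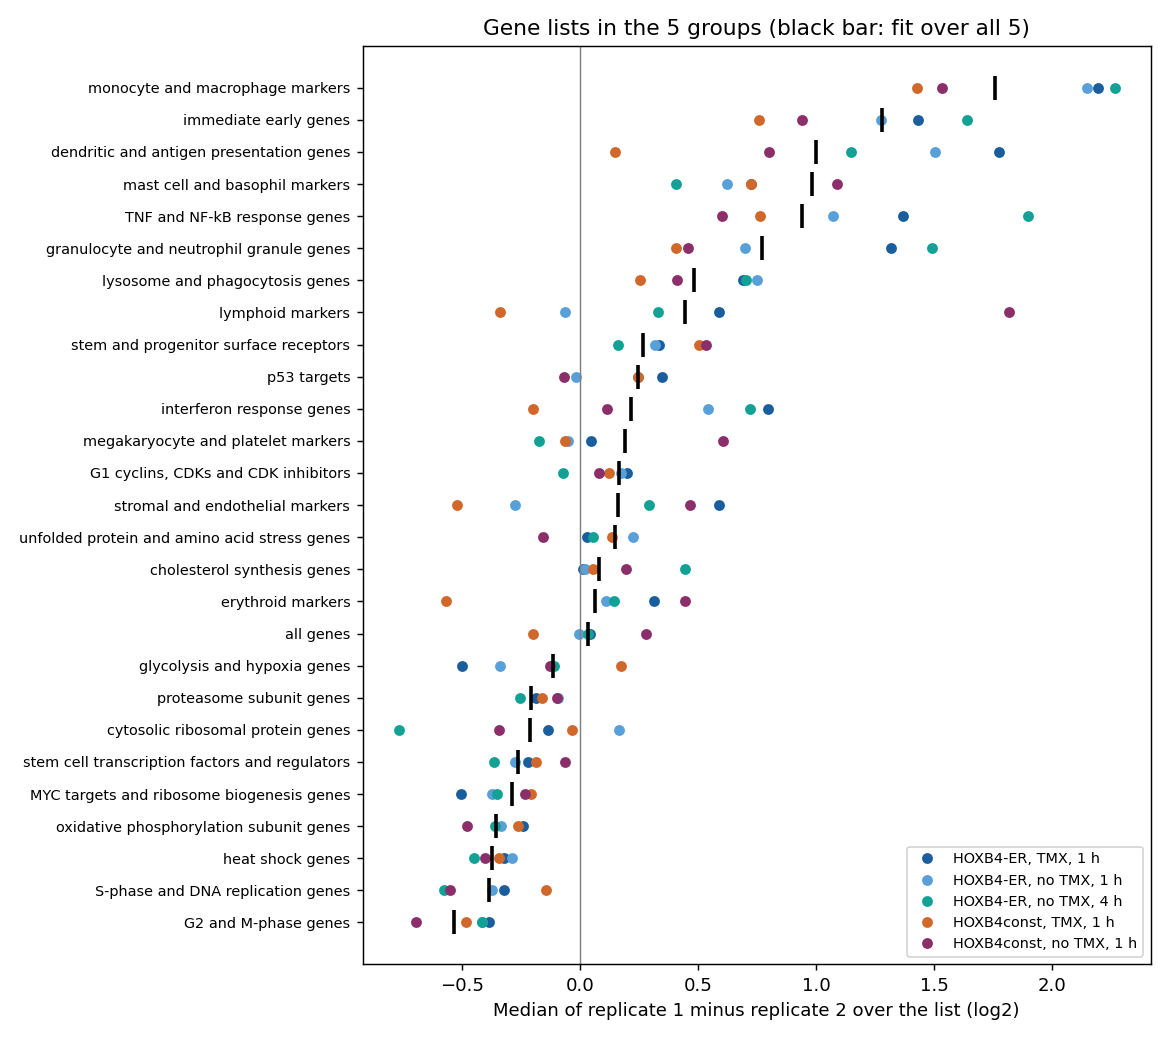
Median of replicate 1 minus replicate 2 (log2) over each of 26 gene lists and over all genes, with 1 coloured point for each of the 5 groups and a black bar for the fit over all 5. Monocyte markers lie at the top (1.76) and G2 and M-phase genes at the bottom (−0.54). Points of the monocyte, granulocyte, dendritic, lysosome, immediate early, TNF, mast cell, cholesterol and stem receptor lists all lie above 0. With centred arrays the cholesterol median turns to −0.24 and the stem receptor median to −0.06. Points of the S-phase, G2 and M-phase, MYC, stem factor, heat shock, oxidative phosphorylation and proteasome lists lie below 0.

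Cycling genes lay the other way, by far smaller steps. Of 54 G2 and M-phase genes, 48 were lower on replicate 1, 33 of them in all 5 groups and 1 higher in all 5. The median was −0.54, at −0.39, −0.42, −0.42, −0.49 and −0.70 by group, and 6 of 54 passed the brighter fit as lower and 0 as higher. Hmmr, a spindle-associated hyaluronan receptor, read 7.88, 7.62, 8.35, 8.01 and 7.83 on replicate 1 against 8.96, 8.42, 9.37, 9.15 and 9.47 on replicate 2 arrays. Every replicate 1 array was below every replicate 2 array, and the difference was −1.13 ± 0.24 (adjusted p = 0.183 over all probe sets and 0.0325 in the brighter fit, limma). Ncapg, a condensin subunit that packs mitotic chromosomes, read 8.54, 8.16, 8.90, 8.36 and 8.28 against 9.20, 8.94, 9.89, 9.38 and 9.50 (−0.93 ± 0.22). Bub1, a kinase of the spindle checkpoint, read 9.03, 8.56, 9.33, 8.79 and 8.49 against 9.84, 9.42, 9.98, 9.55 and 9.70 (−0.86 ± 0.22). Plk4, the kinase that starts centriole duplication, differed by −1.05 ± 0.26. 1 probe set each of Hmmr, Ncapg and Plk4 had the opposite sign.

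The Hmmr and Ncapg promoters are shown because the first holds 5 CCAAT boxes and the second 1 CCAAT box and 1 cell cycle homology region; capitals mark CCAAT or ATTGG and TTTGAA or TTCAAA in the 250 bases before the start. Hmmr lies on the minus strand at chr11:40733438-40733687 and Ncapg on the plus strand at chr5:45669675-45669924 (RefSeq, GRCm38.p6).
Hmmr: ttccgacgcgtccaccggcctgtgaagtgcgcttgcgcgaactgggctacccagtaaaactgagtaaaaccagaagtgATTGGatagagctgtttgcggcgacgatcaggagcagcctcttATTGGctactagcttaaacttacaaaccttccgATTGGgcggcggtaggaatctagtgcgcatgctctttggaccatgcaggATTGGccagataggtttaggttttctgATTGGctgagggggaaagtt
Ncapg: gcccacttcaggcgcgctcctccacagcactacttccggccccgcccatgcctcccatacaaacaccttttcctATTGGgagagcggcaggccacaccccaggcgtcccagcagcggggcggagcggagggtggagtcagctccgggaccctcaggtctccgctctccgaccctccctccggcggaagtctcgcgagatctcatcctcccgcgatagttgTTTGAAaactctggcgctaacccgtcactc
CCAAT was in 35 of the 46 G2 and M-phase genes with a window (76.1%), in 26 of 44 S-phase genes (59.1%) and in 34.5% of all 27025 genes. It was also frequent in 2 lists with medians near 0, in 15 of 17 cholesterol synthesis genes (88.2%, list median 0.08) and 23 of 35 unfolded protein and amino acid stress genes (65.7%, list median 0.15). GAGGAA was in 12 of the 46 G2 and M-phase genes (26.1%). TTTGAA was in 17 of the 46 (37%) against 16.3% overall. The monocyte list held CCAAT in 13 of 39 (33.3%) and TTTGAA in 7 of 39 (17.9%).

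S-phase genes had a median of −0.39, with 24 of 51 lower in all 5 groups and 0 higher, and 0 of 51 passed the brighter fit (8 had an unadjusted p under 0.05 in limma over all probe sets, all lower). Fen1, the flap nuclease of lagging-strand synthesis, read 9.56, 9.57, 9.59, 9.53 and 9.86 against 10.30, 10.08, 10.17, 10.51 and 10.34. The sets did not overlap, but at −0.65 ± 0.22 the gene missed the brighter fit (adjusted p = 0.0715, limma). Rpa1, which coats single-stranded DNA, differed by −0.68 ± 0.23, Gins1, part of the replicative helicase, by −0.60 ± 0.21, and Cdt1, an origin licensing factor, by −0.70 ± 0.25. Cdkn2d, the CDK inhibitor p19, was higher on replicate 1 (6.99, 6.9955, 6.51, 7.39 and 7.54 against 5.85, 5.93, 5.9994, 5.65 and 6.25; 1.15 ± 0.26), the only one of 23 brighter G1 genes past the brighter fit. The median of the 25 G1 genes was 0.17 and turned to −0.16 with centred arrays.

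MYC targets and ribosome biogenesis genes had a median of −0.29 (16 of 44 lower in all 5 groups, 1 higher, 2 past the brighter fit as lower). For the 27 with 2 or more brighter probe sets, it was −0.35 at the brightest and −0.02 at the dimmest. The signs were opposite in 12 of the 27. Cad, the enzyme that begins pyrimidine synthesis, read 8.63, 8.79, 8.56, 8.46 and 8.50 against 9.70, 9.51, 9.72, 9.36 and 9.35 with no overlap (−0.94 ± 0.22). Polr1c, a subunit shared by RNA polymerases I and III, differed by −0.80 ± 0.22. C1qbp, a mitochondrial protein, and Srm, spermidine synthase, differed by −0.74 ± 0.23 and −0.75 ± 0.23 and did not pass (adjusted p = 0.062 and 0.066 in the brighter fit, limma). Oxidative phosphorylation subunits had a median of −0.36 (21 of 44 lower in all 5 groups, 2 higher, 1 past the brighter fit as lower), led by Ndufa5, a subunit of complex I, at −0.92 ± 0.22. Proteasome subunits had a median of −0.21 (14 of 31 lower in all 5 groups, 6 higher, 0 past the brighter fit). Among heat shock genes (median −0.38, 9 of 24 lower in all 5 groups, 1 higher) the chaperone Hsph1 passed the brighter fit at −1.10 ± 0.23.

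Stem cell genes gave no single direction. Transcription factors and regulators of stem cells had a median of −0.26 at each gene's brightest probe set, with 15 of 40 lower in all 5 groups and 3 higher, but 0.21 when a gene's probe sets were averaged, and 0 of 40 passed the brighter fit (3 higher and 6 lower had an unadjusted p under 0.05 in limma over all probe sets). Hlf, a factor of long-term stem cells, read 7.62, 7.98, 7.65, 7.98 and 8.36 against 8.66, 8.52, 8.71, 9.03 and 8.59, without overlap (−0.79 ± 0.25). Meis1, a HOX cofactor, differed by −0.90 ± 0.27, and only 1 of its 3 probe sets had that sign. Tal1, a master factor of blood formation, differed by −0.68 ± 0.22, and Sox4, a progenitor factor, by 0.80 ± 0.23 with the same sign in all 8 of its probe sets.

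Receptors of stem and progenitor cells had a median of 0.26, which turned to −0.06 with centred arrays and to −0.01 with the Gapdh covariate, and 2 of 24 brighter ones passed the brighter fit. These were Cxcr4, the receptor for the niche chemokine CXCL12 (7.33, 7.87, 7.23, 7.64 and 6.89 against 6.22, 5.65, 6.09, 6.22 and 5.16; 1.52 ± 0.27), and Csf2ra, a chain of the GM-CSF receptor (1.52 ± 0.30). Both were apart between the numbers. Flt3, the receptor for a cytokine in the medium, was higher in 5 of 5 groups (1.16 ± 0.31) and Angpt1, angiopoietin, lower in 5 of 5 (−0.97 ± 0.25), and neither passed (adjusted p = 0.0616 and 0.0513 in the brighter fit, limma). Il6st, the gp130 chain that signals for IL-11, differed by 1.71 ± 0.42.

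Kit, the receptor for stem cell factor and a marker of the sort, gave opposite answers at its 2 probe sets. The brightest read 9.38, 9.01, 10.02, 9.76 and 8.72 on replicate 1 and 10.25, 10.07, 10.93, 9.44 and 10.12 on replicate 2 arrays (−0.78 ± 0.32, lower in 4 of 5 groups, adjusted p = 0.135 in the brighter fit, limma). The dimmer read 6.63, 7.17, 6.83, 7.26 and 7.54 against 5.77, 6.11, 4.69, 5.32 and 4.49, higher in 5 of 5 (1.81 ± 0.39, adjusted p = 0.0451). With the Gapdh covariate the dimmer probe set's difference was 0.43 and the brightest one's −0.92. Transgene-related probe sets overlapped between the numbers: Hoxb4 differed by 0.53 ± 0.31 and Esr1, the oestrogen receptor gene, by 0.76 ± 0.27.

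Disagreement between probe sets of a gene was general. Among 4834 genes with 2 or more brighter probe sets, the dimmest one gave a more positive difference than the brightest one in 3350 (69.3%), and the 2 had opposite signs in 2248 (46.5%). The median difference was −0.14 at the brightest and 0.21 at the dimmest probe set. The median gap between them was 0.35, at 0.29, 0.25, 0.35, 0.30 and 0.67 by group, and 0.14 with the Gapdh covariate. It was widest in the HOXB4const pair without TMX, which had both the widest Gapdh difference (−2.70) and the largest difference in array median (0.86). In the other pairs, gaps of 0.29, 0.25, 0.35 and 0.30 stood beside Gapdh differences of −0.70, −0.47, −2.05 and −2.19. Of 15 such monocyte genes 1 had opposite signs, with medians of 1.52 at the brightest and 1.82 at the dimmest probe set, and 0 of 15 TNF response genes had. Differences of that size leave few signs for a gap of 0.35 to turn. The monocyte gap had a median of 0.13 and ran from −0.14 to 1.215 by group, widest in the HOXB4-ER 4 h pair. Opposite signs were also few in 2 lists without such a shift, in 0 of 7 megakaryocyte and platelet genes and 3 of 26 oxidative phosphorylation genes. Of 34 G2 and M-phase genes 16 had opposite signs, with medians of −0.60 and 0.04. Where a probe set lies along its transcript was not analysed here, and the part of RNA quality in these gaps was not tested.

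List medians are set here beside the RNA quality of each pair. In the 2 pairs whose Gapdh difference was under 1 (HOXB4-ER after 1 h with and without TMX), the monocyte median was 2.19 and 2.15. It was 2.26 in the HOXB4-ER 4 h pair, whose Gapdh difference was −2.05. In the HOXB4const pairs, with Gapdh differences of −2.19 and −2.70, it was 1.43 and 1.53. The G2 and M-phase median was −0.39, −0.42, −0.42, −0.49 and −0.70 by group. The part of RNA quality in these medians was not tested. Fitted only on the 2 pairs with a Gapdh difference under 1, the median was 2.19 for monocyte, 1.55 for immediate early and 1.35 for TNF genes. It was 0.67 for lysosome, −0.42 for G2 and M-phase and −0.35 for S-phase genes. With the Gapdh difference as a covariate over all 10 arrays, it was 2.46, 1.69, 1.64, 0.64, −0.39 and −0.34 in the same order. Lyz2 was 4.28 in that fit, Atf3 6.22, Hmmr −0.74 and Ncapg −0.59. The covariate and the number are themselves strongly tied, and 0 probe sets passed any of these fits, so the values describe size and not significance.

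**Figure D4:**
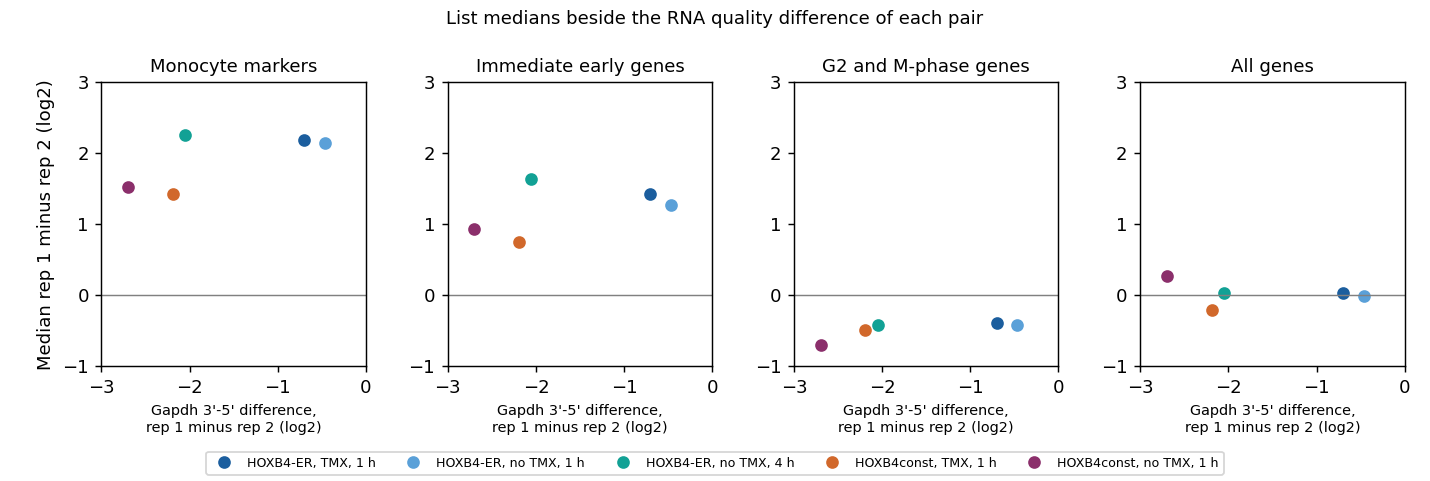
Median replicate 1 minus replicate 2 difference (log2) of 3 gene lists and of all genes, plotted against the replicate difference in the Gapdh 3′ minus 5′ value, with 1 point for each of the 5 groups. Monocyte and immediate early points are highest in the 3 HOXB4-ER pairs, which span Gapdh differences from −2.05 to −0.47, and the lowest G2 and M-phase point (−0.70) is the HOXB4const pair with the widest Gapdh difference.

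List medians of the myeloid genes were larger in HOXB4-ER than in HOXB4const pairs. The test by probe set, with 3 pairs against 2, called no difference between the constructs. In it 0 of 45037 passed (0%, smallest adjusted p = 0.993 in limma). An unadjusted p under 0.05 was reached by 2253, against 2252 by chance. Among brighter probe sets it was reached by 1563 against 1126, and 0 passed (smallest adjusted p = 0.347, limma). With values below 4 set to 4 it was reached by 3173 against 2252. Small differences between the constructs are therefore not excluded. List medians were 2.35 and 1.40 for monocyte, 1.24 and 0.22 for dendritic, 1.57 and 0.73 for TNF and 0.62 and −0.07 for interferon genes. For G2 and M-phase genes they were −0.46 and −0.61. The genes named next are extremes picked from the construct test itself, so their sizes and errors are no evidence of a construct difference. By the naming rule the genes with the smallest p were Cd74 (3.81 ± 0.52 for HOXB4-ER minus HOXB4const), Cd86, a costimulatory ligand (3.85 ± 0.53), Il7r, the receptor for IL-7 (4.44 ± 0.62), Tlr13, a sensor of bacterial RNA (5.18 ± 0.63), and Ctnnd2, a catenin (3.85 ± 0.53). Tlr13 read 6.81, 6.75, 6.95, 5.82 and 6.35 on replicate 1 and 1.64, 0.67, 0.40, 5.38 and 5.28 on replicate 2 arrays. Its HOXB4-ER replicate 2 arrays were the ones apart, all below 4. The other way, Rbm5, an RNA-binding protein (−4.78 ± 0.60), Txn2, mitochondrial thioredoxin (−3.99 ± 0.50), Galnt6, Mmgt2 and Tmem234 had the smallest p. Txn2 at that probe set read 6.50, 7.27, 5.26, 7.44 and 7.44 against 5.77, 7.003, 5.21, 2.98 and 3.23, so the HOXB4const replicate 2 arrays were the low ones, in pairs with Gapdh differences of −2.19 and −2.70, and the part of RNA quality in it was not tested.

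Markers of other cell types were examined beside these results. Mast cell and basophil genes had a median of 0.98, with 9 of 24 higher in all 5 groups and 3 lower, and 4 of 21 brighter ones passed the brighter fit as higher. Mcpt8, a basophil protease, read 11.39, 11.20, 10.99, 10.60 and 10.53 against 10.04, 10.16, 10.19, 9.53 and 9.29 (1.10 ± 0.22) and Hpgds, prostaglandin D synthase, differed by 1.83 ± 0.31. Cpa3, mast cell carboxypeptidase, was among the brightest markers on both sets (medians 11.86 and 12.12) and differed by −0.19 ± 0.24, and Ms4a2, the beta chain of the IgE receptor, was lower in 5 of 5 groups (−0.60 ± 0.22). The summed linear signal of the 24 genes ranged from 14590 to 20142 on replicate 1 and from 13440 to 22980 on replicate 2 arrays, so the sets overlapped.

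Platelet genes went both ways. Pf4, platelet factor 4, read 10.00, 9.59, 10.02, 11.84 and 11.57 against 11.36, 11.76, 11.78, 11.95 and 12.68 (−1.30 ± 0.35, adjusted p = 0.0674 in the brighter fit, limma). Selp, P-selectin, passed the brighter fit as lower (−1.16 ± 0.25) and the tetraspanin Cd9 as higher (1.19 ± 0.24), out of 18 brighter genes. Erythroid genes had a median of 0.06 (27 measured, 0 called), and all 4 measured defining markers were dim, Klf1 at median levels of 3.84 and 4.36. Lymphoid genes had a median of 0.44 (1.81 in the HOXB4const pair without TMX), with 4 of 27 higher in all 5 groups and 0 lower. Of the 9 brighter ones, 2 passed the brighter fit as higher: Klrd1, a chain of natural killer cell receptors (4.83 ± 0.48, or 4.24 with values below 4 set to 4), and Blnk, the B cell linker (4.12 ± 0.42, from replicate 2 levels of 1.84 to 4.01). Of the lymphoid defining markers only Il7r was above the median mean level, with 3.75 to 6.40 on replicate 2 and 6.27 to 9.17 on replicate 1 arrays. Among stromal and endothelial markers Col1a1, Col3a1 and Cdh5 had medians of at most 4.21 on both sets, and Pecam1, shared with blood cells, differed by 1.23 ± 0.39. The median of the 28 genes of that list was 0.16, and their summed linear signal ranged from 5622 to 6744 on replicate 1 and from 3676 to 5438 on replicate 2 arrays, higher in 5 of 5 groups and without overlap. The part of such cells in the results above was not tested. The summed linear signal of the 47 monocyte genes ranged from 32864 to 46753 on replicate 1 and from 17171 to 19893 on replicate 2 arrays. That of the 54 G2 and M-phase genes ranged from 28180 to 33688 and from 39384 to 49270, and neither pair of ranges overlapped. Among the other lists, dendritic, lysosome and immediate early sums were also higher on replicate 1 without overlap. S-phase, stem factor, oxidative phosphorylation and proteasome sums were lower without overlap. The ranges of the remaining lists overlapped.

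Outside the lists, the naming rule gave the brighter genes that were lower on replicate 1 with the smallest p. Gyg, glycogenin, which primes glycogen synthesis, read 10.38, 9.89, 10.41, 10.35 and 9.94 against 11.23, 11.19, 11.73, 11.22 and 11.46 without overlap (−1.17 ± 0.23, adjusted p = 0.177 over all probe sets and 0.0303 in the brighter fit, limma). Krtcap2, a subunit of oligosaccharyltransferase, differed by −1.14 ± 0.23, Timm44, part of the mitochondrial import motor, by −1.22 ± 0.24 (−0.83 at its brightest probe set), Ythdc2, an RNA helicase that reads methylated adenosine, by −1.11 ± 0.23, Armcx4 by −1.31 ± 0.23 and Serf1 by −1.33 ± 0.27. The Timm44 and Serf1 values are from a probe set that is not the gene's brightest. In the Gapdh covariate fit these 6 differences lay between −0.74 and −1.23. Malat1, a nuclear long non-coding RNA singled out after its values were seen, gave differences from −0.12 at its brightest to 5.40 among its 7 probe sets.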

How the data were processed

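RNA of 10 cell samples was hybridised to Affymetrix mouse arrays after linear T7 amplification of 0.7 to 1 µg, per the labels' protocols. The deposited values are log2 signals, 1 per probe set on an array. GCOS and RMA are both named in the submitters' processing notes, with no role stated for either. On every array the mean of the linear signal without the lowest and highest 2% was 100.03 or 100.04 and the quantiles differed, so the values were treated as scaled GCOS signals and not normalized again. The sources used here give no scan date or batch. The file holds 45101 probe sets, and its 64 controls did not enter the fits. The platform annotation gives 34945 of the others 1 gene symbol and 932 several, and the 9160 it does not list are unnamed here. The probe set of highest mean stood for each of the 18193 genes.

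Limma 3.58.1 (R 4.3.3) fitted replicate 1 minus replicate 2 in a model of group and replicate number, with empirical Bayes moderation (no trend), two-sided p-values and Benjamini-Hochberg adjustment over all probe sets fitted (threshold 0.05). The groups share the numbers by their titles. The replicate differences of any 2 groups correlated at 0.21 to 0.527 (10 combinations, brighter probe sets). Control differences were tested by exact sign flips. The fit was tested on simulated data. The 26 gene lists (911 entries, 820 genes measured, 24 entries repeated between lists), the members and the tests were chosen with earlier results of these data known. Named genes are, by rule, the brighter ones past the threshold or else those of smallest p (10 in each direction, 4 for a list, 5 and 5 for the constructs), the defining markers, Kit, Hoxb4 and Esr1. Not all defining markers are described above. Promoter sequences come from RefSeq (GRCm38.p6), and letters were sought on both strands in the 250 bases before the start.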

Additional observations from a re-analysis of the deposited data

Results flagged for a closer look

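Among 204 sets of 5 arrays (102 quantities, each over replicate 1 and over replicate 2), 12 held an array far from the other 4, and chance gives about 1 in 20. On replicate 1, the HOXB4-ER 4 h array was high in Il1b (8.37) and Acod1 (10.36), and the HOXB4const array with TMX was low in Ifit3 (4.66) and Hpgds (5.21) and high in Armcx4 (7.61). The HOXB4const array without TMX was high in Fen1 (9.86), and the HOXB4-ER array without TMX for 1 h was high in Il6st (7.07), both on replicate 1. On replicate 2, Cd83 was high in HOXB4-ER with TMX (3.27) and Itgax low in HOXB4const without TMX (1.06). Cd86 was high in HOXB4const with TMX (5.36), also on replicate 2. Col1a1, a dim marker, was high on replicate 1 (4.95) and low on replicate 2 (1.65) in HOXB4const without TMX. The HOXB4-ER and HOXB4const pairs moved in opposite directions in 2 genes: Prtn3, where HOXB4-ER minus HOXB4const was −0.43 ± 0.45, and Cd86, where it was 3.85 ± 0.53 (adjusted p = 1 and 0.993 in limma over all probe sets).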

How the results depend on the processing

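Over all probe sets, 0 passed with centred arrays, quantile normalization, either control covariate, the pairs of matched Gapdh difference, averaged arrays, either construct alone or any group left out. Without the group term (no replicate block for the pairs) 343 passed, with a trend 2728, and with values below 4 set to 4 504. Among brighter probe sets 850 passed, and, in settings chosen after seeing the data, 168 with centred arrays, 982 with the floor and only probe sets above 4 on at least 1 array, 0 with the Gapdh covariate, averaged arrays or the matched pairs, and 0 to 157 with a group left out. The construct difference gave 1 probe set with the floor (adjusted p = 0.046, limma) and 0 otherwise. The unpaired exact permutation p was 0.00794 for Gapdh (−1.62) and 0.0159 for actin (−1.16). The cause of these changes was not tested.

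List medians moved by more than the SD of the 5 group medians in 27 of 156 values of the myeloid, inflammatory, cycling and stem lists. Monocyte genes gave 2.23 among brighter probe sets, 2.46 with the Gapdh covariate and 2.19 in the matched pairs; immediate early genes 0.90 with the floor and 1.69 with the covariate; TNF genes 1.64 with the covariate; interferon genes 0.89 with the covariate and 0.78 in the matched pairs. Centring, which moved the median of all genes to −0.29 (quantile normalization to −0.13), gave 0.16 for lysosome, −0.71 for S-phase, −0.86 for G2 and M-phase, −0.16 for G1, −0.61 for MYC, −0.59 for stem factors and −0.058 for receptors. Averaged probe sets gave −0.30 for G2 and M-phase, 0.44 for G1, −0.15 for MYC, 0.21 for stem factors and 0.51 for receptors. Quantile normalization gave −0.40 for G2 and M-phase and −0.14 for MYC genes. The covariate gave −0.39 for G2 and M-phase, 0.056 for G1, −0.53 for MYC and −0.011 for receptors, and the matched pairs −0.45 for MYC genes.

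Each of 98 named genes was recomputed at 1 probe set. Cd34 turned to −0.052 with centred arrays, −0.12 with the actin covariate and −0.025 in HOXB4-ER alone. Prtn3 turned to −0.30 with centred arrays or the Gapdh covariate, −0.28 with the actin covariate, −0.18 in the matched pairs and −0.15 in HOXB4-ER, and ran from −0.053 to 0.084 with a group left out. The Gapdh and actin covariates gave −0.23 and −0.56 for Rbm5, −0.63 and −0.88 for Txn2, −0.16 and −0.41 for Galnt6 and −0.71 and −0.74 for Mmgt2. Centred arrays, the Gapdh covariate and the matched pairs gave these same values among brighter probe sets. Cd86 was −0.58 in HOXB4const. Col1a1 was 0.93 in HOXB4const, 0.0022 with averaged arrays and −1.05 to 0.13 with a group left out, and Cdh5 was 0 with the floor. The others of the 98 kept their sign. With 5 pairs that share populations, an array-wide quality difference along the same split and no detection calls, dim levels and single calls are the least secure values here.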
